A study of Arabidopsis thaliana with 30 samples.

Results

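The 10 genes described here take part in the breakdown of amino acids or respond to carbon starvation in *Arabidopsis thaliana*. They were chosen by name and locus, with no measured value in the rule, but with earlier results of these data known. They are ASN1/DIN6 (AT3G47340), DIN4 (AT3G13450), IVD (AT3G45300), MCCA (AT1G03090), MCCB (AT4G34030), ETFQO (AT2G43400), D2HGDH (AT4G36400), LKR/SDH (AT4G33150), GDH1 (AT5G18170) and GDH2 (AT5G07440). All 10 were found among the 37513 entries of the count table, and all 10 belonged to the 19761 genes with enough counts to be tested. After 1 d of recovery from heat shock (HS), 9 of the 10 were higher in leaves of Ah2880 OE plants than in WT leaves, by 2.39-fold for GDH1 up to 11.7-fold for ASN1, where 11.1% of all genes tested were higher. In AhHAB4-PAI-1 OE leaves at that stage, 1 of the 10, ASN1, passed the test, at 0.491 times the WT level, where 2.42% of all genes were lower. After 3 d of recovery, 9 of the 10 were lower in AhHAB4-PAI-1 OE than in WT (4.50% of all genes were lower) and 5 of the 10 were lower in Ah2880 OE than in WT (1.11% of all genes were lower). Each of the 10 genes had its highest mean in WT after 3 d of recovery, a treatment whose libraries were the shallowest of the series. For D2HGDH this mean rests on 5 and 3 counts and was not called above that of WT after 1 d. The share of all genes with their highest mean there was not counted. The paper describes the HS as near-lethal to WT plants, and the part of their condition in these results was not tested.

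RNA-seq was performed on leaves of ecotype Columbia plants, in 30 libraries from 15 treatments, with 2 biological replicates of 10 plants each. In AhHAB4-PAI-1 OE and in Ah2880 OE plants, a cDNA of grain amaranth was expressed from the 35S CaMV promoter, which is active in most tissues, and the WT plants were untransformed. Each OE genotype was 1 homozygous line (L13 of AhHAB4-PAI-1 OE and L12 of Ah2880 OE), so that an effect of the transgene and one of its line cannot be told apart. All plants, WT included, were held at 45 °C under constant light, and were sampled after 1 h (HS-1), 5.5 h (HS-5) or 11 h (HS-11) of HS, or after 22 h of HS followed by 1 d (R-1) or 3 d (R-3) of recovery at 22 °C. By the study's text, recovery took place in a photoperiod with dark hours. R-1 thus differs from HS-11 in the length of HS, in the light regime and in recovery, which cannot be told apart. Plants were 4 weeks old by the labels, although the study's text puts their age at 3 weeks and the HS-5 stage at 5 h. Unheated plants and the transgenes themselves were not analyzed here.

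When sugar runs short, as in darkness or under prolonged stress, plant cells draw energy from protein and amino acids. The kinase SnRK1 and bZIP transcription factors of the C and S1 groups act in this switch, and the DIN genes were named for their induction in the dark. Leucine, isoleucine and valine are broken down in mitochondria through the branched-chain keto acid dehydrogenase, of which DIN4 is the E1 beta subunit. In leucine breakdown, isovaleryl-CoA dehydrogenase (IVD) acts next, followed by the methylcrotonyl-CoA carboxylase made of MCCA and MCCB. IVD and D-2-hydroxyglutarate dehydrogenase (D2HGDH) pass electrons through the electron transfer flavoprotein to its ubiquinone oxidoreductase, ETFQO. LKR/SDH opens lysine breakdown through saccharopine, the locus also giving rise to a transcript for the second enzyme alone. GDH1 and GDH2 are the beta and alpha subunits of mitochondrial glutamate dehydrogenase, which releases ammonium from glutamate. ASN1 is the glutamine-dependent asparagine synthetase that stores this nitrogen as asparagine when carbon is short.

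Total counts per library ranged between 46825 and 5739590, with a median of 2565863.5. The WT R-3 libraries held 46825 and 50677 counts, and no other library held fewer than 686550. Levels are given as CPM, the counts of a gene per 1000000 counts of its library, after edgeR's TMM factors had scaled the library total. In the WT R-3 libraries 3 counts correspond to 37.8 and 34.58 CPM, against 0.477 to 4.44 CPM in the other libraries, so that a low level was not detectable in WT at R-3. The 10 members rest there on 173 and 169 counts for ASN1, 103 and 110 for GDH2, 67 and 52 for LKR/SDH, and between 3 and 30 counts for the others. Libraries were compared by a chi-square test over genes with a summed count of at least 50. The chi-square per degree of freedom was 1.05 to 6.034 in the 15 replicate pairs, and at least 5.228 in 416 pairs of different treatments. The 4 pairs of an Ah2880 OE R-3 with an Ah2880 OE R-1 library gave 1.531 to 1.674, which lies within the range of replicates although the labels give these libraries separate stages. The replicate pairs of these same treatments gave 1.136 (R-1) and 1.51 (R-3), each lower than all 4 of those pairs. Whether the R-1 and R-3 libraries of Ah2880 OE hold separate material was not tested, and it touches every result of Ah2880 OE in recovery. The 5 leaf mesophyll markers, each of which was detected, summed to 22070–29100 CPM in AhHAB4-PAI-1 OE, 8126–8322 CPM in Ah2880 OE and 1071–1141 CPM in WT at R-3, and to 9285–11280, 7171–7274 and 7816–9126 CPM at R-1 in the same lines. The 3 phloem companion cell markers summed to 441–478.1 CPM in AhHAB4-PAI-1 OE, 363.8–385.1 CPM in Ah2880 OE and 23.06–75.59 CPM in WT at R-3. The 3 flower markers summed to 6.088–8.719 CPM in AhHAB4-PAI-1 OE, 32.92–41.67 CPM in Ah2880 OE and 12.39–12.53 CPM in WT at R-1, and to 3.976–6.729, 28.98–32.86 and 37.8–57.64 CPM at R-3 in the same lines. Their sum too was thus highest in Ah2880 OE at R-1 and in WT at R-3. In both treatments this sum came from PI alone (37.3 CPM in Ah2880 OE at R-1), with AP3 and AG at 0, so the other flower markers did not share this course. The 4 root markers summed to at most 8.019 CPM and the 3 seed markers to at most 1.634 CPM in any library, and SAG12, a marker of late senescence, held 9 counts over all 30 libraries. In bulk leaves, fewer cells of a type and less RNA per cell cannot be told apart, and the part of these differences in the results at R-1 and R-3 was not tested.

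The bases before the gene start are shown for the 4 members that changed most between treatments or differed most from a relative: ASN1, LKR/SDH, GDH1 and GDH2. They were read from the RefSeq genome of TAIR10.1, 250 bases each, 5′ to 3′ on the strand of the gene, from chr3:17441432-17441681 (minus strand), chr4:15991634-15991883 (minus), chr5:6005785-6006034 (plus) and chr5:2355509-2355758 (plus). Capitals mark the G-box CACGTG, which bZIP factors are known to bind, and TATCCA, an element known from sugar-starved rice.
ASN1: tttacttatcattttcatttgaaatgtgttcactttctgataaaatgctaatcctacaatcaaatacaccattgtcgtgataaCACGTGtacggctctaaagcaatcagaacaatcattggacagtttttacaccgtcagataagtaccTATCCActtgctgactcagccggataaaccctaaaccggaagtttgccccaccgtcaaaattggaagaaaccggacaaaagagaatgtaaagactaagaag
LKR/SDH: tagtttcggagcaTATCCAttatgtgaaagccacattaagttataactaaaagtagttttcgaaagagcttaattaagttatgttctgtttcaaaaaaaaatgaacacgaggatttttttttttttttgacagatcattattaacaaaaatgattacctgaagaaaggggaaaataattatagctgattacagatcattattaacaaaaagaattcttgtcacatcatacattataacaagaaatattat
GDH1: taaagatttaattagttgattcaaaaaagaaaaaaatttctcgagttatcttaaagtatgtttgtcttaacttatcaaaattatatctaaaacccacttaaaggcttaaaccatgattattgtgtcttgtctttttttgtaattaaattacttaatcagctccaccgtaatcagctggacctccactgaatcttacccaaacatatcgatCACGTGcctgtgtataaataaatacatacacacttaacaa
GDH2: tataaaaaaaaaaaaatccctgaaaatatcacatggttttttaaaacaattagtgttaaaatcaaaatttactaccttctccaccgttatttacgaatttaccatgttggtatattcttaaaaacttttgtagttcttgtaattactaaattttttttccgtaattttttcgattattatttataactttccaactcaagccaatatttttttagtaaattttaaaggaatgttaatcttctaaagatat
A G-box stands in the ASN1 window, starting at base -167 counted from the gene start, and in the GDH1 window at base -40, and ASN1 has another at base 37, beyond the printed bases. TATCCA is in the ASN1 window at base -101 and in the LKR/SDH window at base -237, while the GDH2 window holds neither. A set of 5 motifs was searched on both strands in windows of 300 bases (250 before the gene start and 50 from it on) of all 27443 protein-coding genes. CACGTG was in 2 of the 10 members, ASN1 and GDH1, and in 7.68% of all windows. ACGT, which every CACGTG contains, was in 6 members and in 49.9% of all windows. TATCCA was in 5 members (ASN1, MCCA, MCCB, D2HGDH and LKR/SDH) and in 16.1% of all windows. ACTCAT, an element of proline dehydrogenase genes, was in 1 member, IVD, and in 14.7% of all windows. The heat shock element GAANNTTC, with N for any base, was in 0 of the 10 members and in 11.6% of all windows. These matches describe the letters of the windows and show no binding.

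ASN1 had the widest range of the 10 genes. In AhHAB4-PAI-1 OE it held 4.44 and 9.11 CPM at HS-1 (3 and 13 counts), 43.2 and 40.4 CPM at HS-5, 11.1 and 11.3 CPM at HS-11, 32.5 and 28.2 CPM at R-1, and 80.8 and 79.1 CPM at R-3. In Ah2880 OE it held 33.7 and 26.4 CPM at HS-1, 23.01 and 26.48 CPM at HS-5, 8.22 and 3.89 CPM at HS-11, 742.2 and 666.5 CPM at R-1, and 670.9 and 613.4 CPM at R-3. In WT it held 23.5 and 22.5 CPM at HS-1, 11.0 and 11.9 CPM at HS-5, 38.1 and 37.1 CPM at HS-11, 60.5 and 59.98 CPM at R-1, and 2180 and 1948 CPM at R-3. The lines thus moved on separate courses, with a peak at HS-5 followed by a trough at HS-11 in AhHAB4-PAI-1 OE, a trough at HS-11 followed by a jump at R-1 in Ah2880 OE, and a jump at R-3 in WT. Ordered by mean, WT R-3 (2064 ± 163.6 CPM, SD, n = 2) came first, then Ah2880 OE R-1 (704.4 ± 53.55 CPM) and Ah2880 OE R-3 (642.1 ± 40.67 CPM), whose libraries did not stand apart. The other 12 treatments lay between 6.056 CPM (Ah2880 OE HS-11) and 79.93 CPM (AhHAB4-PAI-1 OE R-3). In length-scaled levels, ASN1 was the highest of the 10 genes in WT R-3 at 752 CPM per kb of exon, followed by GDH2 at 635 CPM per kb. The gene lies at chr3:17437840-17441431 on the minus strand of TAIR10.1.

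The other asparagine synthetases, ASN2 and ASN3, did not share this course. ASN2 held 105.5 and 94.49 CPM at R-1 in AhHAB4-PAI-1 OE, 112.6 and 133.2 CPM in Ah2880 OE, and 121.8 and 113.4 CPM in WT, where Ah2880 OE and WT overlapped. At R-3 it held 93.52 and 95.89 CPM in AhHAB4-PAI-1 OE, 126.1 and 116.8 CPM in Ah2880 OE, and no count in either WT library. Set against a floor of 3 counts in each WT library (36.19 CPM), ASN2 was at least 2.62-fold higher in AhHAB4-PAI-1 OE and at least 3.35-fold higher in Ah2880 OE at R-3. ASN2 is the synthetase known for ammonium assimilation in the light. It was also called higher than in WT in AhHAB4-PAI-1 OE at HS-1 (log2 fold change 0.61, adjusted p = 0.0016) and at HS-5 (0.97, adjusted p = 1.1e-06), and in Ah2880 OE at HS-5 (0.62, adjusted p = 0.0004). Per kb of exon, the ratio of ASN1 to ASN2 was 5.34 and 4.06 in the Ah2880 OE R-1 libraries and 4.31 and 4.26 in the Ah2880 OE R-3 libraries, and 0.0352 to 0.768 in every other library with ASN2 counts. ASN3 stayed at or below 28.41 CPM in every library and was not called against WT at any stage in either OE line.

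**Figure D1:**
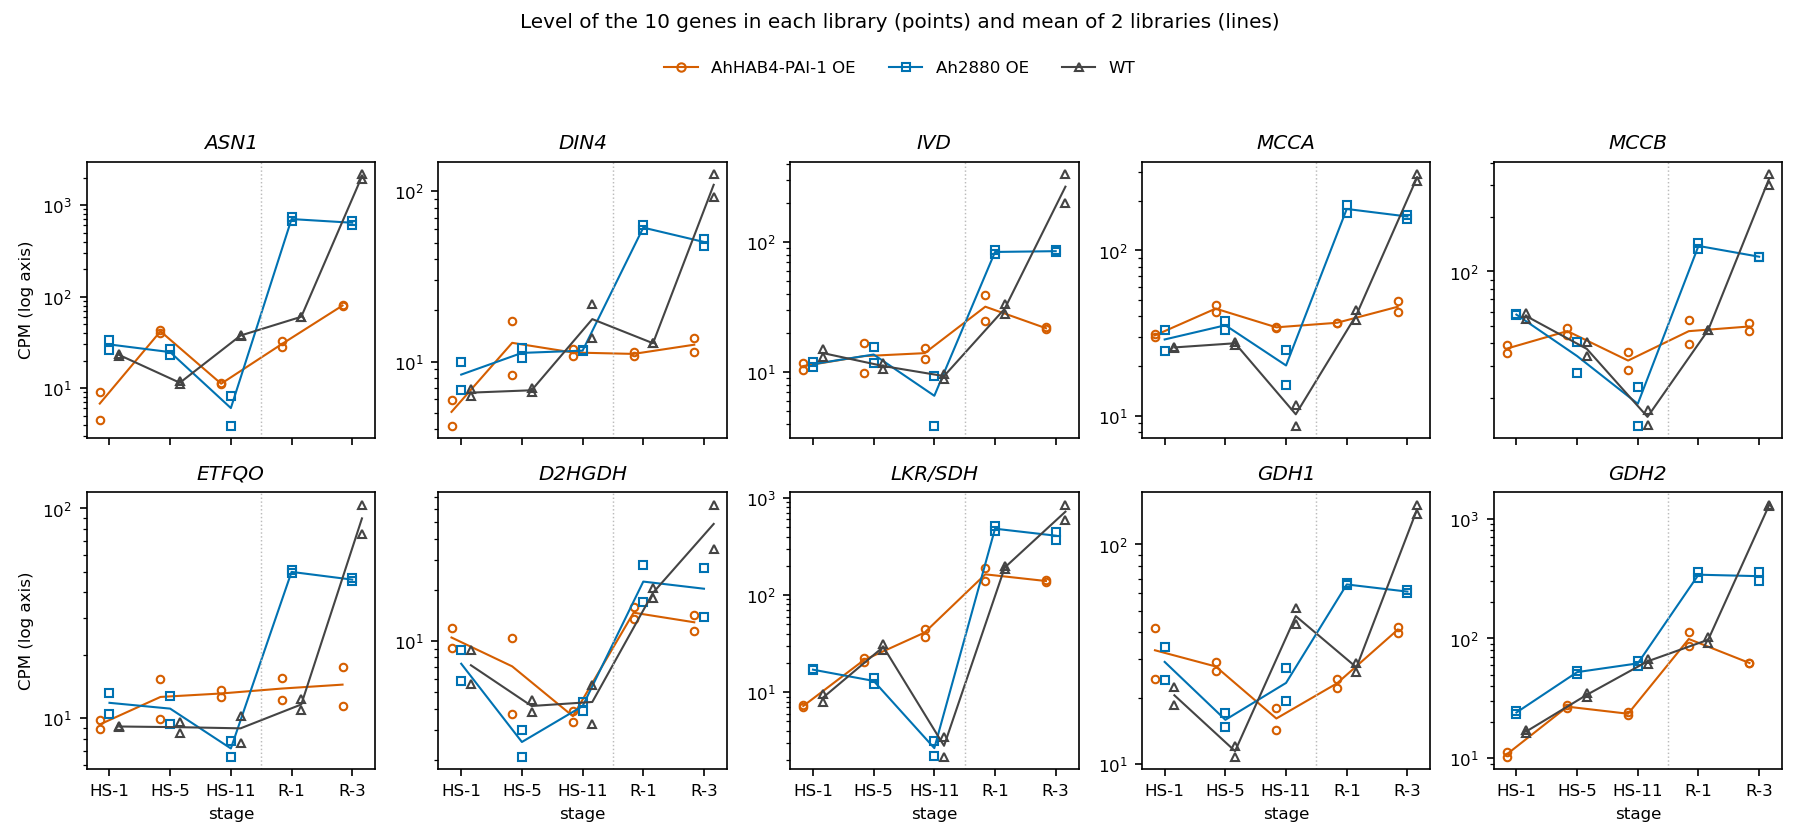
CPM (log axis) of each of the 10 genes by stage, with a point for each library and lines through the means of the 2 libraries, for AhHAB4-PAI-1 OE (circles), Ah2880 OE (squares) and WT (triangles). The mean of each of the 10 genes is highest in WT at R-3, which for D2HGDH rests on 5 and 3 counts. The Ah2880 OE points stand above those of both other lines at R-1 in 9 of the 10 panels, with D2HGDH as the exception. By edgeR's test, 9 of the 10 were higher than in WT there, against 11.1% of all genes. The shares of all genes with these patterns of points or means were not counted, so the panels describe single genes only.

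Branched-chain amino acid breakdown is represented by DIN4, IVD, MCCA and MCCB. DIN4 (chr3:4382198-4384436, minus strand) held between 4.21 and 21.8 CPM in every library of the HS stages. At R-1 it held 10.8 and 11.4 CPM in AhHAB4-PAI-1 OE, 63.1 and 59.3 CPM in Ah2880 OE, and 12.8 and 12.8 CPM in WT. At R-3 it held 13.7 and 11.4 CPM in AhHAB4-PAI-1 OE, 52.7 and 48.0 CPM in Ah2880 OE, and 126.0 and 92.2 CPM in WT. The AhHAB4-PAI-1 OE libraries of both recovery stages thus stayed within the range that the HS stages had, while the other lines left it, Ah2880 OE at R-1 and WT at R-3. IVD (chr3:16621452-16625043, minus strand) likewise was highest in Ah2880 OE at R-1 and in WT at R-3. IVD held 39.2 and 24.7 CPM in AhHAB4-PAI-1 OE, 86.7 and 81.9 CPM in Ah2880 OE, and 33.5 and 28.2 CPM in WT at R-1. At R-3 IVD held 21.5 and 22.2 CPM in AhHAB4-PAI-1 OE, 84.0 and 87.0 CPM in Ah2880 OE, and 201.6 and 334.3 CPM in WT, the WT replicates lying far apart at 16 and 29 counts. The groups of the 3 lines did not overlap at R-3 for either gene.

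MCCA (chr1:739544-744184, plus strand) encodes the biotin-carrying subunit and MCCB (chr4:16301027-16304099, plus strand) the other subunit of methylcrotonyl-CoA carboxylase. MCCA held 36.5 and 36.5 CPM in AhHAB4-PAI-1 OE, 189 and 168 CPM in Ah2880 OE, and 38.1 and 43.5 CPM in WT at R-1. MCCB held 39.9 and 53.5 CPM in AhHAB4-PAI-1 OE, 143 and 134 CPM in Ah2880 OE, and 47.7 and 47.2 CPM in WT at R-1. Both subunits were also at their lowest means in WT at HS-11, where MCCA held 34.0 and 34.6 CPM in AhHAB4-PAI-1 OE, 15.3 and 24.9 CPM in Ah2880 OE, and 8.70 and 11.7 CPM in WT. MCCB held 35.8 and 28.4 CPM in AhHAB4-PAI-1 OE, 23.01 and 14.01 CPM in Ah2880 OE, and 14.1 and 17.2 CPM in WT at HS-11. The AhHAB4-PAI-1 OE libraries were thus above both other lines for each subunit at HS-11, and the Ah2880 OE and WT libraries overlapped for MCCB. The subunits act in 1 complex, and the ratio of MCCA to MCCB per kb of exon was 0.352 to 0.764 in WT and 0.544 to 0.969 in AhHAB4-PAI-1 OE. In Ah2880 OE it was 0.344 and 0.455 at HS-1, 0.653 and 1.08 at HS-5, 0.531 and 1.42 at HS-11, 1.05 and 0.997 at R-1, and 1.09 and 1.03 at R-3. The Ah2880 OE recovery libraries lay above each library of both other lines in this ratio, as did 1 of its 2 libraries at HS-5 and at HS-11, where its replicates lay far apart.

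ETFQO and D2HGDH stand at the electron transfer end of these pathways. ETFQO (chr2:18021109-18025292, plus strand) held 6.58 to 15.3 CPM in every library of the HS stages. At R-1 it held 15.6 and 12.2 CPM in AhHAB4-PAI-1 OE, 50.7 and 49.0 CPM in Ah2880 OE, and 10.9 and 12.4 CPM in WT. At R-3 it held 17.5 and 11.4 CPM in AhHAB4-PAI-1 OE, 46.6 and 45.0 CPM in Ah2880 OE, and 75.6 and 103.8 CPM in WT, on 6 and 9 WT counts. As for DIN4 and IVD, Ah2880 OE was highest at R-1 and WT at R-3. D2HGDH (chr4:17197188-17200932, plus strand) had the lowest level of the 10 in WT R-3, at 22.01 CPM per kb of exon, and was the exception among them. It held 13.5 and 15.8 CPM in AhHAB4-PAI-1 OE, 16.9 and 27.8 CPM in Ah2880 OE, and 17.98 and 20.4 CPM in WT at R-1, where the Ah2880 OE and WT libraries overlapped. At R-3 it held 14.3 and 11.4 CPM in AhHAB4-PAI-1 OE, 13.8 and 26.8 CPM in Ah2880 OE, and 63.0 and 34.6 CPM in WT, on 5 and 3 WT counts. D2HGDH was not called between WT and either OE line at R-3 by edgeR's test, while DESeq2 called it lower in AhHAB4-PAI-1 OE.

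LKR/SDH (chr4:15985174-15991633, minus strand) was the member that parted the lines most at HS-11. In AhHAB4-PAI-1 OE it held 7.40 and 7.01 CPM at HS-1, 22.3 and 20.5 CPM at HS-5, 37.0 and 45.2 CPM at HS-11, 189 and 138 CPM at R-1, and 137 and 141 CPM at R-3. In Ah2880 OE it held 17.4 and 16.8 CPM at HS-1, 12.2 and 13.9 CPM at HS-5, 2.19 and 3.11 CPM at HS-11 (4 and 4 counts), 510 and 454 CPM at R-1, and 446 and 371 CPM at R-3. In WT it held 9.47 and 7.99 CPM at HS-1, 31.5 and 27.1 CPM at HS-5, 2.18 and 3.43 CPM at HS-11 (2 and 5 counts), 185 and 199 CPM at R-1, and 844 and 599 CPM at R-3. The level climbed at each HS stage in AhHAB4-PAI-1 OE, whereas Ah2880 OE and WT were close to the detection floor at HS-11. At R-1 the AhHAB4-PAI-1 OE and WT libraries overlapped and those of Ah2880 OE stood above both.

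GDH1 (chr5:6006035-6008726, plus strand) and GDH2 (chr5:2355759-2358241, plus strand) followed separate courses. GDH1 held 41.5 and 24.5 CPM at HS-1, 26.5 and 29.2 CPM at HS-5, 14.3 and 17.97 CPM at HS-11, 22.3 and 24.3 CPM at R-1, and 42.1 and 39.7 CPM at R-3 in AhHAB4-PAI-1 OE. GDH1 held 24.2 and 34.2 CPM at HS-1, 17.1 and 14.7 CPM at HS-5, 27.4 and 19.5 CPM at HS-11, 66.5 and 65.1 CPM at R-1, and 61.9 and 60.1 CPM at R-3 in Ah2880 OE. GDH1 held 18.6 and 22.5 CPM at HS-1, 10.8 and 12.1 CPM at HS-5, 51.1 and 43.3 CPM at HS-11, 28.9 and 26.3 CPM at R-1, and 151 and 138 CPM at R-3 in WT. WT had a separate GDH1 peak at HS-11, above every library of both OE lines at that stage. GDH2 held 10.4 and 11.2 CPM at HS-1, 27.9 and 26.1 CPM at HS-5, 24.2 and 22.9 CPM at HS-11, 112 and 85.8 CPM at R-1, and 62.7 and 62.2 CPM at R-3 in AhHAB4-PAI-1 OE. GDH2 held 24.7 and 23.5 CPM at HS-1, 54.0 and 50.8 CPM at HS-5, 58.6 and 65.4 CPM at HS-11, 359 and 322 CPM at R-1, and 361 and 302 CPM at R-3 in Ah2880 OE. GDH2 held 16.3 and 17.1 CPM at HS-1, 35.3 and 32.5 CPM at HS-5, 60.9 and 68.0 CPM at HS-11, 103 and 92.6 CPM at R-1, and 1298 and 1268 CPM at R-3 in WT. GDH2 was lowest in AhHAB4-PAI-1 OE at every HS stage, and its Ah2880 OE and WT libraries overlapped at HS-11.

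The subunits assemble into hexamers of varying make-up, so their ratio is given within each library, per kb of exon. At HS-1 the ratio of GDH2 to GDH1 was 0.229 and 0.419 in AhHAB4-PAI-1 OE, 0.937 and 0.63 in Ah2880 OE, and 0.804 and 0.696 in WT. Per kb of exon, GDH1 thus stood above GDH2 in all 6 libraries of HS-1. In Ah2880 OE replicate 1 this came from the scaling by length, on 46 counts of GDH1 and 47 of GDH2. At R-1 the ratio was 4.61 and 3.23 in AhHAB4-PAI-1 OE, 4.96 and 4.53 in Ah2880 OE, and 3.26 and 3.23 in WT. At R-3 it was 1.36 and 1.44 in AhHAB4-PAI-1 OE, 5.34 and 4.6 in Ah2880 OE, and 7.87 and 8.41 in WT. The lines did not overlap in this ratio at R-3, and it was lower in AhHAB4-PAI-1 OE at R-3 than at R-1.

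**Figure D2:**
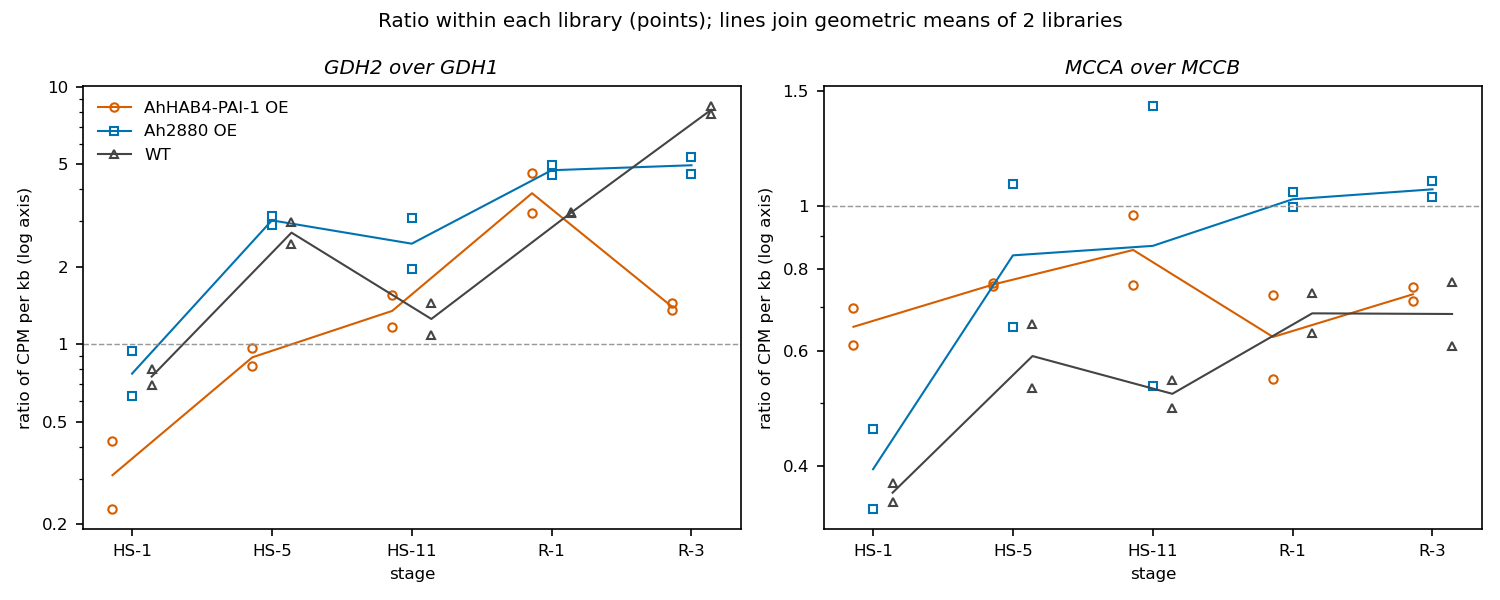
Ratio of GDH2 to GDH1 (left) and of MCCA to MCCB (right), each as CPM per kb of exon on a log axis, by stage. Points are libraries and lines join geometric means of 2 libraries of AhHAB4-PAI-1 OE (circles), Ah2880 OE (squares) and WT (triangles), with a dashed line at equal levels. At R-3 the GDH2 to GDH1 ratio is 1.36 and 1.44 in AhHAB4-PAI-1 OE, 5.34 and 4.6 in Ah2880 OE, and 7.87 and 8.41 in WT.

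Each OE line was compared with WT at each stage by edgeR's quasi-likelihood test over all genes, and a member was called at an adjusted p under 0.01. At HS-1, 1 of 10 members was lower in AhHAB4-PAI-1 OE (6.74% of all genes were lower), which was ASN1 (log2 fold change -1.60 ± 0.31 SE, adjusted p = 8.5e-05). In Ah2880 OE, 0 of 10 were called at HS-1, where 2.98% of all genes were higher and 1.51% lower. The nearest to a call there was LKR/SDH (log2 fold change 0.97 ± 0.26, adjusted p = 0.011), and 4213 of all genes had an unadjusted p under 0.05.

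At HS-5, 3 of 10 members were higher in AhHAB4-PAI-1 OE than in WT (8.61% of all genes were higher). ASN1 had a log2 fold change of 1.86 ± 0.20 (adjusted p = 5.2e-11) and GDH1 one of 1.28 ± 0.23 (adjusted p = 1.5e-05). MCCA was called with the smallest change, 0.69, and lost its call without AhHAB4-PAI-1 OE HS-5 replicate 1 (adjusted p = 0.0416), AhHAB4-PAI-1 OE HS-5 replicate 2 (0.0129) or WT HS-5 replicate 1 (0.0206). In Ah2880 OE, 2 of 10 were higher (12.1% of all genes) and 1 of 10 lower (9.98% of all genes) at HS-5. ASN1 was higher than in WT there too (1.12 ± 0.19, adjusted p = 3.2e-06) and LKR/SDH was lower (-1.16 ± 0.20, adjusted p = 5e-06). GDH2 was higher by 0.62 ± 0.14 (adjusted p = 0.00047), a call that was lost without WT HS-5 replicate 2 (adjusted p = 0.0155). ASN1 was therefore the 1 member called higher in both OE lines at HS-5, and both comparisons share the WT libraries.

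At HS-11, 3 of 10 members were higher and 3 of 10 lower in AhHAB4-PAI-1 OE than in WT. Of all genes, 29.5% were higher and 23.6% lower in that comparison, so the share of members called was close to that of all genes. LKR/SDH had the largest change (log2 fold change 3.78 ± 0.36, adjusted p = 2.2e-13), followed by MCCA (1.70 ± 0.25, adjusted p = 7e-08). The change of LKR/SDH rests on 2 and 5 WT counts. ASN1 (-1.74 ± 0.21, adjusted p = 3.7e-10) and GDH1 (-1.53 ± 0.20, adjusted p = 4.5e-09) had the lowest values. In Ah2880 OE, 2 of 10 were lower at HS-11 (4.98% of all genes), ASN1 (-2.54 ± 0.29, adjusted p = 3.9e-09) and GDH1 (-0.95 ± 0.23, adjusted p = 0.0021). The call of GDH1 was lost without WT HS-11 replicate 1 (adjusted p = 0.0354), WT HS-11 replicate 2 (0.0142) or Ah2880 OE HS-11 replicate 2 (0.0587).

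At R-1, the 9 members higher in Ah2880 OE than in WT spanned all the roles above, and only D2HGDH was not called (log2 fold change 0.27 ± 0.27, adjusted p = 0.44). ASN1 (3.54 ± 0.13, adjusted p = 3.5e-30) and DIN4 (2.24 ± 0.21, adjusted p = 2.7e-13) had the largest changes, and LKR/SDH (1.32 ± 0.12, adjusted p = 6.6e-13) and GDH1 (1.25 ± 0.18, adjusted p = 1.4e-07) the smallest among those called. The other 5, MCCA, ETFQO, GDH2, MCCB and IVD, lay between 1.45 and 2.11. The median of the 10 members was 1.67 on the log2 scale, against -0.28 over all genes tested. In AhHAB4-PAI-1 OE at R-1, ASN1 was lower than in WT (-1.03 ± 0.15, adjusted p = 9.4e-07), and the other 9 lay between -0.35 and 0.16.

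At R-3 in AhHAB4-PAI-1 OE, ASN1 (log2 fold change -4.69 ± 0.14, adjusted p = 9.3e-33) and GDH2 (-4.36 ± 0.16, adjusted p = 2.3e-29) had the lowest values of the 9 members that were lower than in WT. LKR/SDH (-2.37 ± 0.19, adjusted p = 3.5e-15) and GDH1 (-1.81 ± 0.35, adjusted p = 6.1e-05) differed least among the 9. GDH1 lost its call without WT R-3 replicate 1 (adjusted p = 0.0101) and ETFQO without WT R-3 replicate 2 (0.0198). D2HGDH (-1.86 ± 0.67, adjusted p = 0.035) was not called. The median of the members was -2.67, against 1.51 over all genes tested. At R-3 in Ah2880 OE, GDH2 (-1.96 ± 0.15, adjusted p = 2e-15), ASN1 (-1.68 ± 0.13, adjusted p = 5.8e-15), IVD (-1.66), MCCB (-1.43 ± 0.25, adjusted p = 2.8e-05) and LKR/SDH (-0.82 ± 0.18, adjusted p = 0.00085) were lower than in WT. The median of the members was -1.20, against 1.03 over all genes. Both medians over all genes rest on the WT R-3 libraries, in which only 202 genes had a summed count of at least 50. Without WT R-3 replicate 2 the count was 2, with ASN1 and GDH2 kept. LKR/SDH also lost its call without WT R-3 replicate 1 (adjusted p = 0.239) or Ah2880 OE R-3 replicate 2 (0.021).

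**Figure D3:**
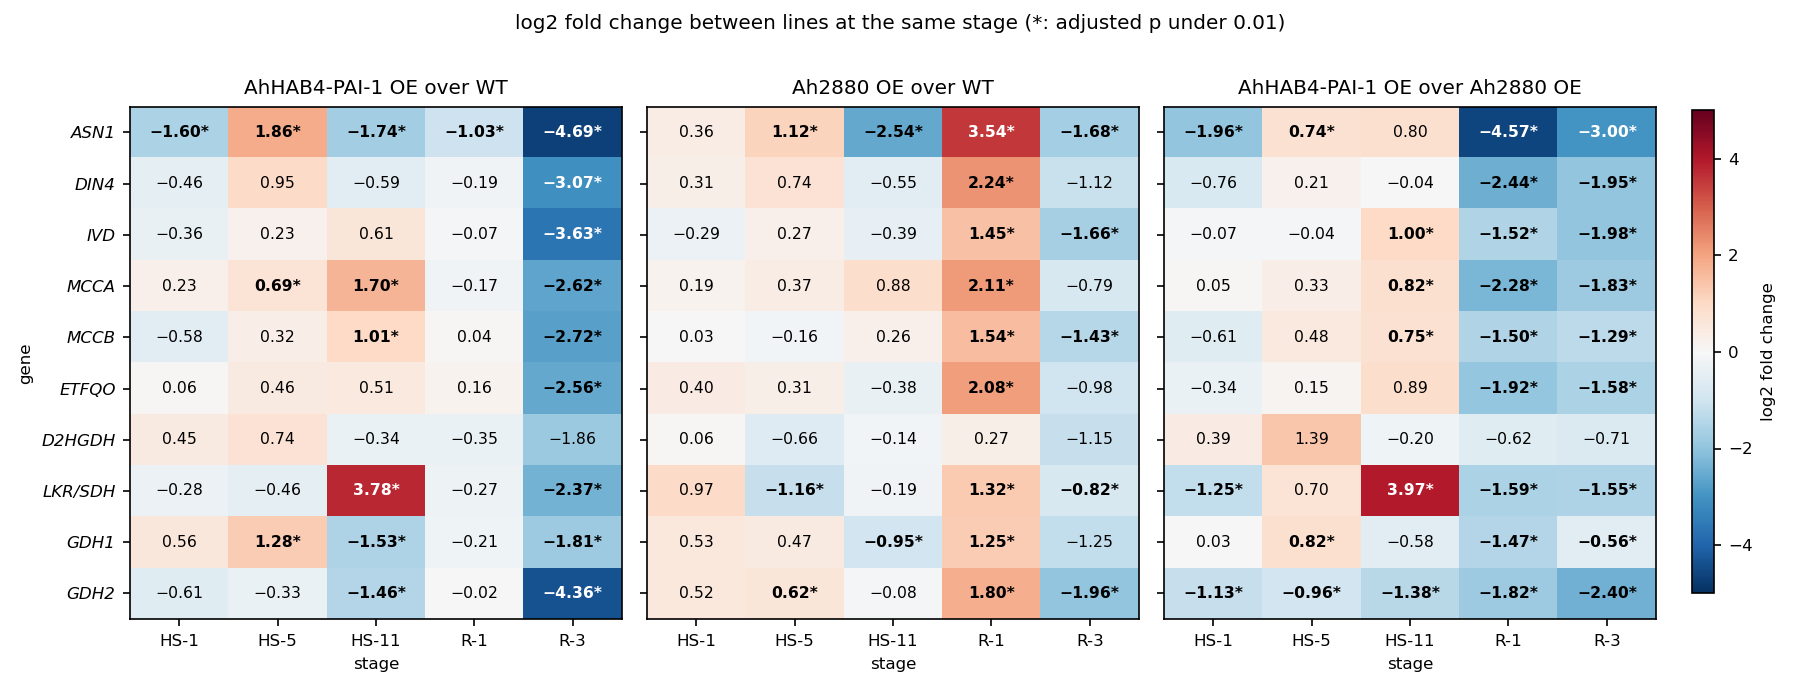
Log2 fold changes of the 10 genes (rows) at each stage (columns) in AhHAB4-PAI-1 OE over WT (left), Ah2880 OE over WT (middle) and AhHAB4-PAI-1 OE over Ah2880 OE (right), with color from blue (lower in the line named first) to red (higher). An asterisk marks an adjusted p under 0.01. The R-1 column of Ah2880 OE over WT holds 9 called higher and the R-3 column of AhHAB4-PAI-1 OE over WT 9 called lower.

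The OE lines were compared with each other by the same test, a comparison that takes no level from the shallow WT R-3 libraries, although these help to estimate the spread. At HS-1, 3 of 10 members were lower in AhHAB4-PAI-1 OE than in Ah2880 OE (8.78% of all genes were lower). ASN1 was one (log2 fold change -1.96 ± 0.31, adjusted p = 1.1e-06), and LKR/SDH (-1.25 ± 0.37, adjusted p = 0.0093) and GDH2 (-1.13) were the others. Without any 1 of the 4 libraries, the count at HS-1 was 1, ASN1. At HS-5, 2 of 10 were higher (12.1% of all genes) and 1 of 10 lower (14.4% of all genes). GDH1 (0.82 ± 0.23, adjusted p = 0.0034) and ASN1 (0.74 ± 0.18, adjusted p = 0.00089) were higher and GDH2 was lower (-0.96 ± 0.18, adjusted p = 2.4e-05), while without AhHAB4-PAI-1 OE HS-5 replicate 1 the count was 1, GDH2. Both subunits of glutamate dehydrogenase thus differed between the OE lines at HS-5, in opposite directions. GDH1 also lost its call without AhHAB4-PAI-1 OE HS-5 replicate 2 (adjusted p = 0.0611) or Ah2880 OE HS-5 replicate 2 (0.0415), and ASN1 without Ah2880 OE HS-5 replicate 1 (0.012).

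At HS-11, 4 of 10 members were higher in AhHAB4-PAI-1 OE than in Ah2880 OE (25.9% of all genes were higher) and 1 of 10 lower (21.6% of all genes were lower). LKR/SDH (log2 fold change 3.97 ± 0.33, adjusted p = 6.1e-15) and IVD (1.00 ± 0.33, adjusted p = 0.0073) were highest, ahead of MCCA and MCCB, and GDH2 was lower (-1.38 ± 0.16, adjusted p = 1.6e-10). Without Ah2880 OE HS-11 replicate 2 or AhHAB4-PAI-1 OE HS-11 replicate 1 the count was 3, with LKR/SDH, MCCA and GDH2 kept, and MCCA lost its call without Ah2880 OE HS-11 replicate 1 (adjusted p = 0.138). At R-1, 9 of 10 were lower in AhHAB4-PAI-1 OE (11.8% of all genes were lower), led by ASN1 (-4.57 ± 0.14, adjusted p = 5.7e-32) and DIN4 (-2.44 ± 0.22, adjusted p = 1.5e-13). At R-3, 9 of 10 were again lower (14.2% of all genes were lower), led by ASN1 (0.125 times the Ah2880 OE level, adjusted p = 7.2e-28) and GDH2 (-2.40 ± 0.12, adjusted p = 2.5e-23). D2HGDH was the member not called at both recovery stages, and GDH1 had the smallest called change at R-3 (-0.56 ± 0.16, adjusted p = 0.0025), a call that was lost without any 1 of the 4 libraries (adjusted p = 0.011 to 0.0303).

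Within AhHAB4-PAI-1 OE, each stage was compared with the one before it. In every line, the step from HS-11 to R-1 takes in longer HS, the change of light regime and recovery together. At HS-5, 4 of 10 members were higher than at HS-1 (8.66% of all genes were higher), ASN1 (log2 fold change 2.45 ± 0.30, adjusted p = 1.9e-09) and LKR/SDH (1.57 ± 0.38, adjusted p = 0.00079) most, with DIN4 and GDH2. Without AhHAB4-PAI-1 OE HS-1 replicate 2 the count was 1, ASN1, and DIN4 also lost its call without HS-1 replicate 1 (adjusted p = 0.0199) or HS-5 replicate 2 (0.34). At HS-11, 1 of 10 was higher than at HS-5 (8.05% of all genes) and 2 of 10 lower (11.7% of all genes), namely LKR/SDH (0.94 ± 0.21, adjusted p = 0.0003), ASN1 (-1.90 ± 0.19, adjusted p = 1.4e-11) and GDH1 (-0.80 ± 0.21, adjusted p = 0.0031). Without AhHAB4-PAI-1 OE HS-5 replicate 2 the count was 1, ASN1, and GDH1 also lost its call without AhHAB4-PAI-1 OE HS-5 replicate 1 (adjusted p = 0.0169) or HS-11 replicate 1 (0.0596). At R-1, 7 of 10 were higher than at HS-11 (24.9% of all genes), D2HGDH (2.05 ± 0.30, adjusted p = 4.2e-08) and GDH2 (2.02 ± 0.14, adjusted p = 3e-18) most. The smallest of the 7 was GDH1 (0.56), whose call was lost without AhHAB4-PAI-1 OE R-1 replicate 1 (adjusted p = 0.0119), R-1 replicate 2 (0.197) or HS-11 replicate 1 (0.143). MCCB (0.60) lost its call without AhHAB4-PAI-1 OE R-1 replicate 2 (adjusted p = 0.303) or HS-11 replicate 2 (0.0417). At R-3, 2 of 10 were higher than at R-1 (10.9% of all genes) and 1 of 10 lower (6.70% of all genes). ASN1 (1.44 ± 0.15, adjusted p = 1.8e-11) and GDH1 (0.79 ± 0.17, adjusted p = 0.00028) rose and GDH2 fell (-0.62 ± 0.13, adjusted p = 0.00017). GDH2 lost that call without AhHAB4-PAI-1 OE R-1 replicate 1 (adjusted p = 0.0124), and GDH1 without R-1 replicate 2 (0.014) or R-3 replicate 1 (0.0101).

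In Ah2880 OE, 1 of 10 members was higher at HS-5 than at HS-1 (15.9% of all genes) and 3 of 10 lower (17.4% of all genes). GDH2 rose (log2 fold change 1.12 ± 0.17, adjusted p = 1.8e-07), and D2HGDH (-1.53 ± 0.44, adjusted p = 0.0036), GDH1 (-0.92 ± 0.21, adjusted p = 0.00023) and MCCB (-0.78) fell. Without Ah2880 OE HS-1 replicate 2 the count was 2 (MCCB and GDH2), without Ah2880 OE HS-5 replicate 2 it was 1 (GDH2), and D2HGDH lost its call also without HS-5 replicate 1 (adjusted p = 0.0297). At HS-11, 4 of 10 were lower than at HS-5 (26.3% of all genes), LKR/SDH (-2.33 ± 0.43, adjusted p = 6.3e-06) and ASN1 (-1.95 ± 0.28, adjusted p = 3.8e-08) most, with MCCA and MCCB. MCCA lost that call without Ah2880 OE HS-11 replicate 1 (adjusted p = 0.112), and MCCB without HS-5 replicate 1 (0.0773) or HS-11 replicate 2 (0.0915). At R-1, 10 of 10 were higher than at HS-11 (22.5% of all genes), by log2 fold changes between 1.45 ± 0.22 for GDH1 (adjusted p = 7.1e-08) and 7.52 ± 0.25 for LKR/SDH (adjusted p = 7.2e-32), with ASN1 at 6.77 ± 0.19 (adjusted p = 9.3e-35). The median of the members was 2.82, against -0.14 over all genes. At R-3, 0 of 10 differed from R-1, with log2 fold changes between -0.29 and 0.03, and of all genes 0.00% were higher and 0.00% lower by the quasi-likelihood test, with 1073 at an unadjusted p under 0.05. DESeq2 also called 0 of the 10 there.

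In WT, 2 of 10 members were higher at HS-5 than at HS-1 (17.9% of all genes) and 3 of 10 lower (21.0% of all genes). LKR/SDH (log2 fold change 1.75 ± 0.21, adjusted p = 9.6e-10) and GDH2 (1.02 ± 0.17, adjusted p = 1.5e-06) rose, and ASN1 (-1.01 ± 0.19, adjusted p = 1.2e-05), GDH1 (-0.85 ± 0.20, adjusted p = 0.00047) and MCCB (-0.60) fell. Without WT HS-1 replicate 2 the count was 3, with ASN1, LKR/SDH and GDH2 kept, GDH1 lost its call without WT HS-5 replicate 1 (adjusted p = 0.0141), and MCCB without WT HS-5 replicate 2 (0.036). At HS-11, 4 of 10 were higher than at HS-5 (21.6% of all genes) and 3 of 10 lower (27.9% of all genes), the share of lower members being close to that of all genes. GDH1 (2.02 ± 0.22, adjusted p = 1.5e-11) and ASN1 (1.71 ± 0.21, adjusted p = 1.1e-09) rose most, with DIN4 and GDH2, and DIN4 lost its call without WT HS-11 replicate 1 (adjusted p = 0.0237). LKR/SDH (-3.30 ± 0.38, adjusted p = 1.3e-10) and MCCA (-1.38 ± 0.26, adjusted p = 1.1e-05) fell most, with MCCB. At R-1, 7 of 10 were higher than at HS-11 (30.2% of all genes) and 1 of 10 lower (25.3% of all genes). LKR/SDH (64.2-fold, adjusted p = 2.6e-25) and D2HGDH (2.05 ± 0.41, adjusted p = 1.9e-05) rose most and GDH1 fell (-0.76 ± 0.20, adjusted p = 0.00067). GDH1 lost that call without WT HS-11 replicate 1 (adjusted p = 0.0188) or WT R-1 replicate 2 (0.0102), GDH2 without WT HS-11 replicate 1 (0.0131) and ASN1 without WT HS-11 replicate 2 (0.0213). At R-3, 9 of 10 were higher than at R-1 (3.98% of all genes), ASN1 (5.10 ± 0.15, adjusted p = 4.2e-34) and GDH2 (3.72 ± 0.15, adjusted p = 8.4e-27) most, and D2HGDH was not called (1.32, adjusted p = 0.14). ETFQO lost that call without WT R-3 replicate 2 (adjusted p = 0.0144). The median of the members was 2.86 there, against -1.39 over all genes, a value that also rests on the shallow WT R-3 libraries.

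A change between stages in an OE line less the same change in WT was tested as an interaction. From HS-1 to HS-11, the change of 3 of 10 members was higher in AhHAB4-PAI-1 OE than in WT (23.5% of all genes) and that of 1 of 10 lower (17.9% of all genes). LKR/SDH (log2 difference 4.06 ± 0.57, adjusted p = 2.8e-08) and MCCB (1.59 ± 0.32, adjusted p = 3.3e-05) were highest and GDH1 (-2.09 ± 0.32, adjusted p = 1.6e-07) was lowest. From HS-11 to R-1, the change of 2 of 10 was higher in AhHAB4-PAI-1 OE than in WT (20.3% of all genes) and that of 3 of 10 lower (23.9% of all genes). GDH2 (1.44 ± 0.21, adjusted p = 6.5e-08) and GDH1 (1.32 ± 0.27, adjusted p = 4.7e-05) were highest, and LKR/SDH (-4.05 ± 0.39, adjusted p = 7.5e-13) and MCCA (-1.87 ± 0.30, adjusted p = 6.3e-07) lowest. MCCB (-0.97) lost its call without WT HS-11 replicate 1 (adjusted p = 0.0332), WT HS-11 replicate 2 (0.0215), AhHAB4-PAI-1 OE HS-11 replicate 1 (0.0344) or AhHAB4-PAI-1 OE R-1 replicate 1 (0.0153).

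From HS-1 to HS-11, the change of 2 of 10 members was lower in Ah2880 OE than in WT (3.07% of all genes), ASN1 (log2 difference -2.90 ± 0.35, adjusted p = 1.8e-08) and GDH1 (-1.48 ± 0.30, adjusted p = 0.00043). GDH1 lost that call without Ah2880 OE HS-1 replicate 2 (adjusted p = 0.025). From HS-11 to R-1, the change of 8 of 10 was higher in Ah2880 OE than in WT (5.89% of all genes), with ASN1 (6.08 ± 0.31, adjusted p = 3.1e-22) and DIN4 (2.79 ± 0.39, adjusted p = 1.4e-07) highest. Without WT HS-11 replicate 1 the count was 5 and without WT HS-11 replicate 2 it was 4, and ASN1, DIN4, GDH1 and GDH2 were kept in both. IVD and MCCB also lost their call without Ah2880 OE HS-11 replicate 2 (adjusted p = 0.0333 and 0.0419), MCCB without Ah2880 OE R-1 replicate 1 (0.0117), and MCCA without 6 of the 8 libraries (0.0107 to 0.239). D2HGDH and LKR/SDH were the 2 members not called, with differences of 0.42 and 1.51.

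The other genes of these pathways were described from fixed lists, which, like the 10 genes, were drawn up with earlier results of these data known. In Ah2880 OE at R-1, 14 of 18 other carbon starvation genes were higher than in WT and 1 was lower, against 11.1% and 18% of all genes. DIN2, a beta-glucosidase, held 437 and 396.5 CPM in Ah2880 OE and 9.53 and 8.91 CPM in WT (log2 fold change 5.49 ± 0.17, adjusted p = 4.6e-32). The transcription factor bZIP11, which is repressed by sucrose at the level of its translation, was the 1 gene of the list lower than in WT (-1.55 ± 0.26, adjusted p = 2.7e-06). In AhHAB4-PAI-1 OE at R-3, 12 of the 18 were lower than in WT and 1, bZIP2, was higher, against 4.50% and 11.7% of all genes. The lowest was DIN11, at 1.11 and 1.35 CPM in AhHAB4-PAI-1 OE against 25.2 and 115 CPM in WT (2 and 10 counts). In AhHAB4-PAI-1 OE at HS-1, 9 of the 18 were lower than in WT and none was higher, against 6.74% and 6.77% of all genes, and at HS-5, 6 were higher and 3 lower, against 8.61% and 8.68% of all genes, led by bZIP63 (2.18 ± 0.23, adjusted p = 4e-11). At HS-11 in that line 5 were higher and 4 lower, shares of 27.8% and 22.2% that were close to those of all genes, and at R-1 none was higher and 5 (27.8%) were lower, against 4.71% and 2.42% of all genes. In Ah2880 OE, 2 (11.1%) were higher at HS-1, against 2.98% of all genes, and 6 (33.3%) at HS-5, against 12.1%, with none lower at either stage. At HS-11, 1 (5.56%) was higher and 3 (16.7%) were lower in Ah2880 OE, against 3.89% and 4.98% of all genes, and at R-3 none was higher and 4 (22.2%) were lower, against 1.11% of all genes.

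Of 15 other genes of branched-chain amino acid breakdown and electron transfer, 6 (40%) were higher and 1 (6.67%) was lower in Ah2880 OE than in WT at R-1, against 11.1% and 18% of all genes. BCAT2, a branched-chain aminotransferase, held 116 and 104.6 CPM in Ah2880 OE and 9.53 and 13.5 CPM in WT there (log2 fold change 3.23 ± 0.20, adjusted p = 6.8e-20). LPD2, a mitochondrial lipoamide dehydrogenase shared by several complexes, was lower than in WT (-0.46 ± 0.13, adjusted p = 0.0034). In AhHAB4-PAI-1 OE at R-3, 5 of the 15 were lower than in WT, with BCAT2 lowest (-4.92 ± 0.32, adjusted p = 1.1e-18), and 2 were higher, or 33.3% and 13.3% against 4.50% and 11.7% of all genes. At HS-11 in AhHAB4-PAI-1 OE, 5 of the 15 were higher and 2 lower, or 33.3% and 13.3% against 29.5% and 23.6% of all genes. AT1G21400 was highest there (4.05 ± 0.35, adjusted p = 1.5e-14). In that line 1 of the 15 (6.67%) was lower at HS-1, against 6.74% of all genes, and 1 was higher at HS-5 and at R-1, against 8.61% and 4.71% of all genes, so these counts were near those of all genes. In Ah2880 OE, 1 (6.67%) was higher at HS-1, against 2.98% of all genes, 2 (13.3%) at HS-5, against 12.1%, and none was called at HS-11. At R-3 in Ah2880 OE, 2 (13.3%) were higher and 4 (26.7%) lower, against 4.1% and 1.11% of all genes.

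Of 23 other amino acid breakdown genes, 14 (60.9%) were higher and 2 (8.7%) were lower in Ah2880 OE than in WT at R-1, against 11.1% and 18% of all genes. GAD1, a glutamate decarboxylase, held 31.5 and 23.4 CPM in Ah2880 OE and 1.63 and 0.435 CPM in WT, on 6 and 2 counts (log2 fold change 4.72 ± 0.43, adjusted p = 1.2e-13). The arginase ARGAH2 was lower than in WT (-1.87 ± 0.17, adjusted p = 5.2e-13). In AhHAB4-PAI-1 OE at R-3, 12 of the 23 (52.2%) were lower than in WT and 2 (8.7%) higher, against 4.50% and 11.7% of all genes. The threonine aldolase THA1 was lowest, at 2.07 and 1.68 CPM in AhHAB4-PAI-1 OE against 214.2 and 196 CPM in WT (-6.69 ± 0.44, adjusted p = 6.8e-19). ARGAH2, with no count in WT at R-3, was at least 7.17-fold higher in AhHAB4-PAI-1 OE and at least 1.42-fold higher in Ah2880 OE, against a floor of 3 counts in each WT library. At HS-5 in AhHAB4-PAI-1 OE, 6 of the 23 (26.1%) were higher and 1 (4.35%) lower, against 8.61% and 8.68% of all genes, and PRODH1/ERD5, a proline dehydrogenase, averaged 72.27 CPM in AhHAB4-PAI-1 OE and 1.934 CPM in WT (5.21 ± 0.24, adjusted p = 3e-24). In that line 1 (4.35%) was higher and 2 (8.7%) lower at HS-1, against 6.77% and 6.74% of all genes. At HS-11, 2 (8.7%) were higher and 7 (30.4%) lower, against 29.5% and 23.6% of all genes, and at R-1, 2 (8.7%) were higher and 3 (13%) lower, against 4.71% and 2.42%. In Ah2880 OE, 1 (4.35%) was higher at HS-1, against 2.98% of all genes, 4 (17.4%) were higher and 2 (8.7%) lower at HS-5, against 12.1% and 9.98%, and 1 (4.35%) was lower at HS-11, against 4.98%. At R-3 in Ah2880 OE, 2 (8.7%) were higher and 6 (26.1%) lower, against 4.1% and 1.11% of all genes. The 3 lists had medians of 1.61, 0.41 and 0.74 at R-1 in Ah2880 OE and of -2.07, -1.08 and -1.19 at R-3 in AhHAB4-PAI-1 OE on the log2 scale, against -0.28 and 1.51 over all genes tested. The values at R-3 rest on the shallow WT R-3 libraries.

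**Figure D4:**
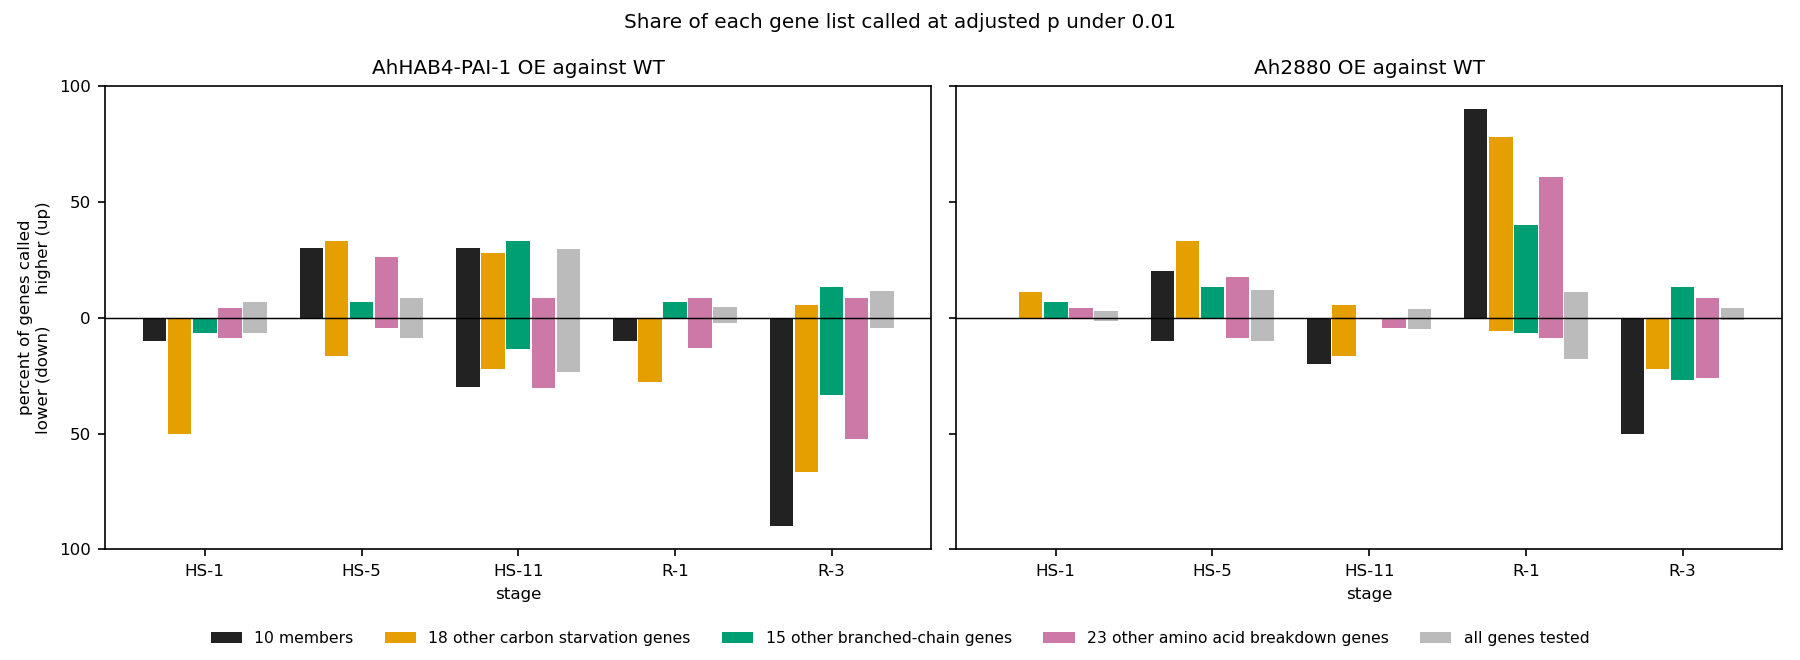
Percent of genes called higher (up) and lower (down) than in WT at each stage in AhHAB4-PAI-1 OE (left) and Ah2880 OE (right), for the 10 members, the 18 other carbon starvation genes, the 15 other branched-chain genes, the 23 other amino acid breakdown genes and all genes tested. In Ah2880 OE at R-1, 90% of the members, 77.8%, 40% and 60.9% of the lists and 11.1% of all genes are higher.

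The members' levels were also compared with each other over 14 treatment means of log2 CPM, leaving out WT R-3. Over the 45 pairs, Pearson's r ranged between 0.40 (LKR/SDH with GDH1) and 0.933 (MCCA with ETFQO), with a median of 0.77. These means share plants and libraries across genes, and the r values are descriptions of the 14 means. The means of Ah2880 OE R-1 and R-3, between which no gene was called, both enter and are the highest of the 14 for each member. An r without them, or over pairs of other genes, was not computed. The 5 genes with the highest r to ASN1 were AT4G19460 (0.969), AT2G38870 (0.966), AT2G18690 (0.964), AT1G03850 (0.958) and AT5G56870 (0.956). None of the 10 members was among them, the nearest being ETFQO at rank 51 of 19760 genes, IVD at rank 99 and DIN4 at rank 150. With WT R-3 included, 3 of these 5 genes were still among the first 5, and AT4G19460 stood at rank 743. Leaving out WT R-3, 9 of the 10 members had their highest mean in Ah2880 OE R-1 and IVD had it in Ah2880 OE R-3. The share of all genes with their highest mean in these treatments was not counted. Leaving out both Ah2880 OE recovery treatments as well, the highest means were spread over AhHAB4-PAI-1 OE R-3 (ASN1, ETFQO and MCCA), AhHAB4-PAI-1 OE R-1 (GDH2 and IVD), WT HS-11 (DIN4 and GDH1), WT R-1 (D2HGDH and LKR/SDH) and Ah2880 OE HS-1 (MCCB). Summed over the 10 members, levels were 479.2 and 480.1 CPM in AhHAB4-PAI-1 OE, 1829 to 2023 CPM in Ah2880 OE and 5130 to 5532 CPM in WT at R-3, and 430.5 to 511.4, 2027 to 2228 and 538.2 to 542 CPM at R-1 in the same lines.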

How the data were processed

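RNA-seq was performed on leaves in 15 treatments with 2 libraries each. Per the labels, mRNA was captured on oligo(dT) beads. Per the study's methods, the authors aligned reads to TAIR10 with Bowtie2 2.2.5, removed duplicates with Picard 2.0.1 after sorting with Samtools 1.6, and counted reads per gene with Subread 2.0.0, and the deposited values are raw counts per gene. Removal of duplicates lowers the counts of the most abundant transcripts most. The strand setting and the annotation release are not given in the sources used here, so reads of overlapping genes may be misassigned. The 30 files of single libraries held the same values as the count table.

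Counts were analyzed with edgeR 4.0.16 in R 4.3.3. Genes were filtered with filterByExpr by treatment, library totals were scaled by TMM, and 1 mean per treatment was fitted over all 30 libraries with the quasi-likelihood test. Log2 fold changes are given with their SE, p-values were adjusted by Benjamini-Hochberg over 19761 genes, and called means an adjusted p under 0.01. The biological coefficient of variation was 0.0772, and 15 residual degrees of freedom and 37.2 prior degrees of freedom stood behind the tests. Log2 CPM used a prior count of 2, and the floor was 3 counts per library, which covers counting error only. The quasi-likelihood test was tried on simulated counts, with changes planted in well-counted genes for Ah2880 OE against WT at R-1 only. All treatments shared a profile otherwise, so comparisons with WT R-3, genes of low count and shifts in composition were not tried. The members and pathway lists were chosen with earlier results of these data known. All members are named, with full statistics for the 2 highest and the 2 lowest called in each comparison, and list genes are named as the highest or lowest called. Alternatives were RLE scaling, no filter, the earlier quasi-likelihood fit, DESeq2 1.42.0, a replicate block, only the treatments compared, leaving out the WT R-3 libraries, leaving out each library in turn and, chosen after seeing the data, leaving out the Ah2880 OE R-3 libraries. Sequences came from the RefSeq genome of TAIR10.1, and Python 3.11.15 with pandas 2.3.3 joined the tables.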

Additional observations from a re-analysis of the deposited data

Results flagged for a closer look

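The members below are given because their change between stages in an OE line differed from the same change in WT by the interaction test of edgeR's quasi-likelihood fit (adjusted p under 0.01). Values are log2 differences, the change in the OE line less that in WT, with adjusted p. From HS-1 to HS-11 in AhHAB4-PAI-1 OE, the differences were 4.06 for LKR/SDH (2.8e-08), 1.59 for MCCB (3.3e-05), 1.47 for MCCA (0.0003) and -2.09 for GDH1 (1.6e-07). From HS-11 to R-1 in AhHAB4-PAI-1 OE, they were 1.44 for GDH2, 1.32 for GDH1, -0.97 for MCCB, -1.87 for MCCA and -4.05 for LKR/SDH. LKR/SDH, MCCA, MCCB and GDH1 thus had differences of opposite sign over the successive intervals. Both intervals use the HS-11 libraries, as the later stage of the first and the earlier stage of the second. In the WT HS-11 libraries LKR/SDH held 2 and 5 counts. Of all genes, 23.5% were higher and 17.9% lower over the first interval, and 20.3% and 23.9% over the second. The share of members flagged in AhHAB4-PAI-1 OE was thus close to that of all genes.

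From HS-1 to HS-11 in Ah2880 OE, the differences were -2.90 for ASN1 (1.8e-08) and -1.48 for GDH1 (0.00043), where 3.07% of all genes were lower. From HS-11 to R-1 in Ah2880 OE, they were 6.08 for ASN1, 2.79 for DIN4, 2.46 for ETFQO, 2.21 for GDH1, 1.88 for GDH2, 1.84 for IVD, 1.28 for MCCB and 1.23 for MCCA, where 5.89% of all genes were higher. ASN1 held 15 and 5 counts in the Ah2880 OE HS-11 libraries, so that its difference over both intervals rests on few counts there.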

How the results depend on the processing

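No called member changed its sign under any alternative tried. Apart from leaving out single libraries, 235 counts of called members stayed within 1.5 times their value and 7 did not. Of the log2 fold changes, 559 stayed on their side of the threshold and 7 did not. These cover only the members with full statistics, up to the 2 highest and the 2 lowest called in each comparison. Leaving out single libraries took the call from more members, as given with the results above. With a replicate block, 1 member in place of 0 was called in Ah2880 OE against WT at HS-1, LKR/SDH. With only the treatments compared in the fit, the counts were 1 in place of 0 in Ah2880 OE against WT at HS-1, 3 in place of 5 at R-3, 3 in place of 5 between the OE lines at HS-11, and 2 in place of 4 for HS-11 against HS-5 in Ah2880 OE, where fewer libraries estimated the spread. DESeq2 called 8 in place of 5 in Ah2880 OE against WT at R-3 (DIN4, MCCA and GDH1 in addition) and 1 in place of 3 between the OE lines at HS-1, and the cause was not tested. Without single libraries, the counts ranged between 1 and 2 in Ah2880 OE against WT at HS-11, 2 and 5 at R-3, 1 and 1 between the OE lines at HS-1, 1 and 3 at HS-5, and 3 and 5 at HS-11. For stage steps they ranged between 1 and 4 (HS-5 against HS-1) and 1 and 3 (HS-11 against HS-5) in AhHAB4-PAI-1 OE, 1 and 4 (HS-5 against HS-1) in Ah2880 OE, and 3 and 5 (HS-5 against HS-1) in WT. For the interactions of Ah2880 OE with WT they ranged between 1 and 2 (HS-1 to HS-11) and 4 and 8 (HS-11 to R-1).

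RLE scaling moved the median log2 fold change of all genes most at R-3, to 1.23 in place of 1.51 in AhHAB4-PAI-1 OE against WT and to 0.79 in place of 1.03 in Ah2880 OE against WT. Deviations of same-numbered libraries correlated at -0.206 to 0.143 over 105 pairs of treatments, and the replicate block moved no other count of called members by over 1.5 times. Counting noise lowers such correlations, so whether replicate numbers pair the samples was not settled. Depth limits the WT R-3 comparisons most, with 46825 and 50677 counts in these libraries, and each OE genotype was 1 line with 2 libraries per stage.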
